A study of Mus musculus with 11 samples.

Results

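The perilipins Plin2, Plin3, Plin4 and Plin5 were followed across lumbar spinal cord of 3 groups of mice. The members were 4 of the 20888 gene rows of the deposited expression table, taken by symbol. Plin4 was chosen by its measured RPKM, as the gene with the largest rise in MFN2-R94Q, so its values in the comparisons that use that group are given as a description, without a test. All mice were C57BL/6 and 10 months old. The groups were nontransgenic mice (nTg, n = 3), mice carrying MFN2-R94Q, a mutant mitofusin of Charcot-Marie-Tooth disease type 2A (CMT2A) (n = 3), and mice carrying MFN2-R94Q together with MFN1 (MFN2-R94Q:MFN1, n = 5). The labels state no promoter, species or founder line for the transgenes, and no sex, batch or pairing. Replicate numbers only name the libraries. Each value is the RPKM of one library, that is reads per kilobase of gene, scaled to the mapped reads of the library.

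Perilipins coat the surface of lipid droplets, the organelles in which cells store triglyceride and sterol esters, and regulate the access of lipases to the stored lipid. Plin2 and Plin3 are found in most cell types, and free Plin2 protein that is not bound to droplets is degraded. Plin4 is best known from adipocytes and skeletal muscle, and Plin5 from oxidative tissues, where it links droplets to mitochondria. Plin1, the adipocyte perilipin, is not one of the members and was read as a check. Mitofusins are GTPases of the outer mitochondrial membrane that drive mitochondrial fusion.

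The libraries held 30.5 to 71.8 M reads, as recovered from the smallest RPKM steps of short RNA genes. MFN2-R94Q replicate 2 stood apart from all other libraries. On the first principal component, which held 39.6% of the variance, its score was 27.01. Replicates 1 and 3 of the same group scored 6.20 and 8.05, and the scores of all other libraries ran from -8.23 to -2.48. Results that rest on it are given with and without it. The mouse Mfn1 and Mfn2 rows passed the test in no comparison and so check no label: Mfn1 averaged 24.9, 26.3 and 25.0 RPKM and Mfn2 45.9, 46.3 and 45.2 RPKM in nTg, MFN2-R94Q and MFN2-R94Q:MFN1. Markers of neurons, motor neurons, astrocytes and oligodendrocytes were present in every library. In bulk tissue, fewer cells of a type and less RNA per cell cannot be told apart.

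Plin4 lies on the minus strand of chromosome 17 at 56100591 to 56109803 (GRCm38, GENCODE). Its longest transcript has 9 exons and 5756 bases, of which 4209 are coding. The coding part holds a tandem repeat of 99 bases (33 codons), a feature that sets Plin4 apart from the rest of the family and that bears on how its reads can be placed. A search of the transcript listed 25 copies with at most 30 differences from a reference copy, here called copy 0, together 2475 bases. A set of 3 copies is printed from the minus strand 5′ to 3′ to show the range, with capitals for bases that differ from copy 0: copy 0 itself at chr17:56106235-56106333, copy -7 at chr17:56106928-56107026 with 6 differences, and copy 3 at chr17:56105344-56105442 with 24 differences.
copy 0: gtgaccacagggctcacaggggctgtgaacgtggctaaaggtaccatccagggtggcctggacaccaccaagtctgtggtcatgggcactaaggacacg
copy -7: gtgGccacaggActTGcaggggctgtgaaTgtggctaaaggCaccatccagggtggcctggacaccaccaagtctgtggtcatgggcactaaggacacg
copy 3: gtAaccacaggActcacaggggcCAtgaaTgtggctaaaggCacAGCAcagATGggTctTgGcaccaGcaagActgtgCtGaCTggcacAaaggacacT
Copies 0, 1 and 5 have the same 99 bases. Of all 50-base windows of the Plin4 transcript, 17.4% occur more than once in it, against 0% for the longest transcripts of Plin1, Plin2, Plin3 and Plin5. A short read from these windows matches more than 1 place in the same gene. The labels do not say how the authors' counting treated such reads, and the absolute RPKM of Plin4 is for that reason less certain than that of the other perilipins.

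The promoters of Plin4 and Plin2 are shown because these are the members whose levels differed most clearly between MFN2-R94Q and MFN2-R94Q:MFN1, in opposite directions. Both run from 250 bases before to 50 after the start that the RefSeq promoter table uses on GRCm38.p6, which is not the outermost end of the RefSeq gene used for distances between genes. They are on the minus strand, at chr17:56109733-56110032 for Plin4 and chr4:86670010-86670309 for Plin2. Capitals mark matches to the motifs searched.
Plin4: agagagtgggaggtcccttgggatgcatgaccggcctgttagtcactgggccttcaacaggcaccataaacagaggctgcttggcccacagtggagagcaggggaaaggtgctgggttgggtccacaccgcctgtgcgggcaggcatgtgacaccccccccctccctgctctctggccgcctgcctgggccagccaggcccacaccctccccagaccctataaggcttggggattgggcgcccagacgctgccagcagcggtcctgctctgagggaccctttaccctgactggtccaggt
Plin2: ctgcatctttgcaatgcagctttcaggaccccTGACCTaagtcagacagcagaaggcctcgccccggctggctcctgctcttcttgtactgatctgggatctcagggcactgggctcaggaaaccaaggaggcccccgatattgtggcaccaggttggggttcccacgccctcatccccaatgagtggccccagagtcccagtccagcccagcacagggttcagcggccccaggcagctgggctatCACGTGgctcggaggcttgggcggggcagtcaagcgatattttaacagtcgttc
Motifs were searched on both strands. They were the steroid receptor site AGAACA, the glucocorticoid response element built from that site, any 3 bases and its reverse complement, the nuclear receptor site AGGTCA and the PPAR response element, in which that site is repeated after any 1 base. The sequence ACGTG, the palindromic E-box CACGTG that contains it, and the TATA box TATAAA were searched too. The Plin4 window held none of them. The Plin2 window held AGGTCA 218 bases before the start and CACGTG 4 bases before it, which contains 2 overlapping matches of ACGTG. Each of the 2 annotated Plin5 starts had 1 AGGTCA, and Plin3 and Plin1 had no match. Among 32851 promoters of the same length, 16.3% hold AGGTCA, 7.15% CACGTG, 19.6% ACGTG, 19% AGAACA and 13.6% TATAAA. The long elements are rare, at 0.00913% for the glucocorticoid and 0.0396% for the PPAR element. These are matches of letters in a short window and say nothing of binding.

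In nTg cord the perilipins spanned a wide range of levels. Plin3 was highest at 25.4, 26.2 and 26.1 RPKM, above 83.1% of the tested genes. Plin2 followed at 7.62, 7.76 and 7.22 RPKM. Plin4 was low at 2.46, 2.19 and 1.60 RPKM, above 20.9% of the tested genes. Plin5 was lowest at 0.372, 0.338 and 0.311 RPKM, and Plin1 was listed at 0 in 10 of the 11 libraries and at 0.029 RPKM in the other. No 2 neighbours in this order overlapped within nTg. The same order without overlap held in MFN2-R94Q:MFN1.

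**Figure D1:**
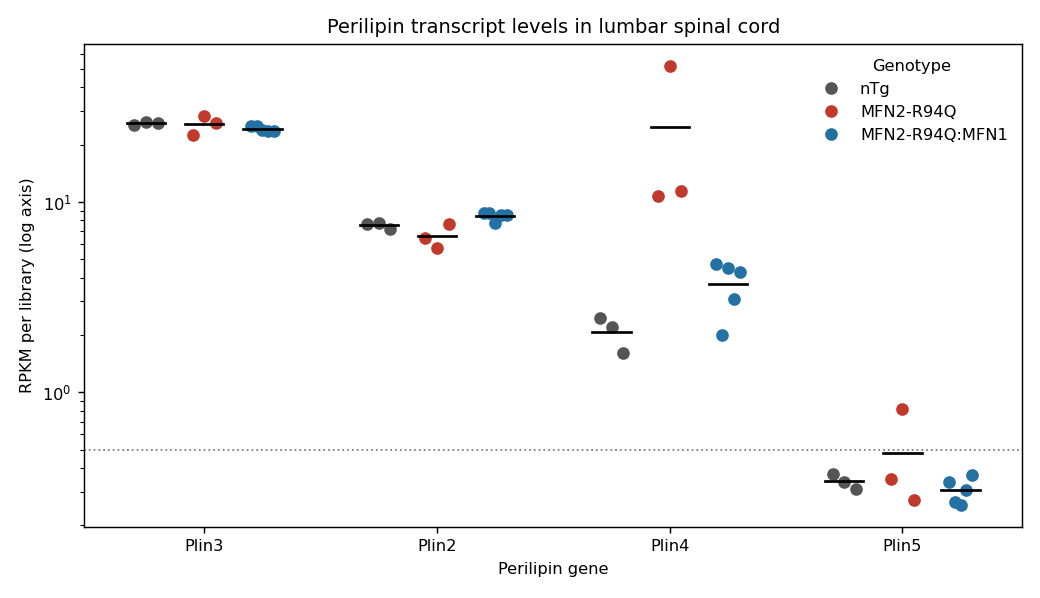
RPKM of each perilipin gene (log axis) in the 11 libraries, with 1 point per library and a black bar for the group mean; the dotted line marks 0.5 RPKM, the level used by the filter on low values. Plin4 is higher in all 3 MFN2-R94Q libraries (10.7, 51.9 and 11.4 RPKM) than in any other library, while Plin3 stays between 22.6 and 28.2 RPKM throughout.

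Plin4 was below Plin2 in every nTg and MFN2-R94Q:MFN1 library and above it in every MFN2-R94Q library. Its levels in MFN2-R94Q were 10.7, 51.9 and 11.4 RPKM, or 5.12, 24.9 and 5.49 times the nTg mean. Every MFN2-R94Q library was above every nTg and every MFN2-R94Q:MFN1 library, and replicate 2 was far above the other two. Of the tested genes, 16.6% were higher without overlap in MFN2-R94Q than in nTg (35.7% in either direction, 19.1% lower), and 7.05% were lower without overlap in MFN2-R94Q:MFN1 than in MFN2-R94Q. In MFN2-R94Q:MFN1 the levels were 4.73, 1.99, 4.49, 3.09 and 4.29 RPKM, or 2.27, 0.952, 2.15, 1.48 and 2.06 times the nTg mean. Of these 5 libraries, 4 were above all nTg libraries and replicate 2 lay inside the nTg range.

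Group means of Plin4 were 2.09 ± 0.438 RPKM (SD, n = 3) in nTg, 24.7 ± 23.6 (SD, n = 3) in MFN2-R94Q and 3.72 ± 1.16 (SD, n = 5) in MFN2-R94Q:MFN1. The ratio of means was 11.8 for MFN2-R94Q over nTg and 0.151 for MFN2-R94Q:MFN1 over MFN2-R94Q. On the log2(RPKM + 0.5) scale the differences were 2.90 (SE 0.46) and -2.23 (SE 0.41). Without MFN2-R94Q replicate 2 they were 2.17 and -1.51, and the MFN2-R94Q mean was 11.05 RPKM. Its log2 difference from nTg ranked first among the 14347 tested genes in each MFN2-R94Q library taken alone, at 2.13, 4.36 and 2.22. This rank describes how Plin4 was picked and is no support for it.

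The comparison of MFN2-R94Q:MFN1 with nTg did not enter the choice of Plin4, although its nTg libraries did. Plin4 was 0.67 higher on the log2 scale (SE 0.41), with an adjusted p of 0.48 by limma. The exact two-sided permutation test gave p = 0.0714, or 0.179 adjusted over the 10 tests made on the members. The ratio of means was 1.78, and the libraries overlapped. Across tested genes in this comparison, 2.31% passed the threshold of an adjusted p of 0.05, 2.09% as higher and 0.223% as lower. The 95% interval of the log2 difference, -0.22 to 1.56, includes 0, but its spread is shared with the MFN2-R94Q libraries. Without MFN2-R94Q replicate 2 the interval was 0.23 to 1.11 (adjusted p 0.088 by limma). With the 2 groups fitted alone it was 0.21 to 1.13 (adjusted p 0.107 by limma). Both of these intervals lie above 0, and neither adjusted p passed the threshold. A choice by the rise over nTg favours genes with low values in these nTg libraries. This difference may therefore be overstated, and the intervals do not show that Plin4 stayed raised.

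**Figure D2:**
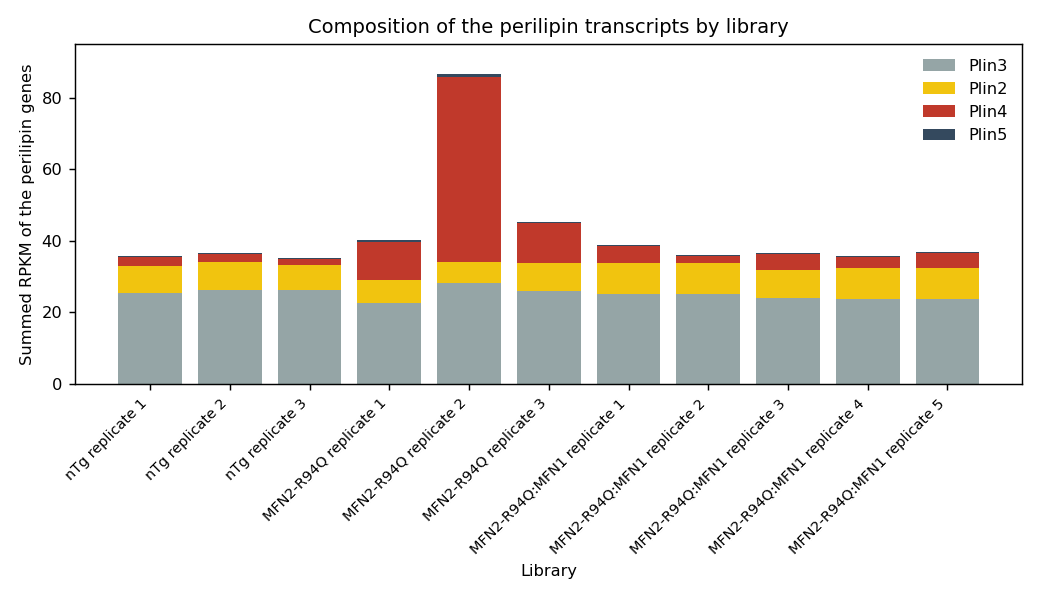
Summed RPKM of Plin2, Plin3, Plin4 and Plin5 in each library as stacked bars, 1 colour per gene. The bars are 35.2 to 38.8 RPKM high in the nTg and MFN2-R94Q:MFN1 libraries and 40.1, 86.7 and 45.3 RPKM in MFN2-R94Q, with the added height in the Plin4 segment.

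Plin4 made up a larger share of the family in MFN2-R94Q. RPKM is scaled by gene length and can be added across genes. The perilipins summed to 35.8 ± 0.647 RPKM (SD, n = 3) in nTg, 57.4 ± 25.5 (SD, n = 3) in MFN2-R94Q and 36.8 ± 1.24 (SD, n = 5) in MFN2-R94Q:MFN1. Plin4 made up 4.56% to 6.87% of the sum in nTg and 26.7%, 59.9% and 25.2% in MFN2-R94Q replicates 1 to 3. In MFN2-R94Q:MFN1 its share was 5.53% to 12.3%. Plin4 exceeded Plin2 in all 3 MFN2-R94Q libraries and Plin3 in replicate 2 alone. Relative to Plin3, Plin4 was at 0.473, 1.84 and 0.440 in MFN2-R94Q replicates 1 to 3. The group means of Plin3 (25.6 RPKM) and Plin4 (24.7 RPKM) are close because of replicate 2, and without it the Plin4 mean is 11.05 RPKM.

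Plin2 was higher in MFN2-R94Q:MFN1 than in MFN2-R94Q. Its levels were 6.45, 5.70 and 7.64 RPKM in MFN2-R94Q and 8.78, 8.72, 7.76, 8.58 and 8.56 RPKM in MFN2-R94Q:MFN1. The groups did not overlap, although MFN2-R94Q replicate 3 and MFN2-R94Q:MFN1 replicate 3 came close. Means were 6.59 ± 0.976 (SD, n = 3) and 8.48 ± 0.413 (SD, n = 5). The log2 difference was 0.35 (SE 0.072), with an adjusted p of 0.0106 by limma. In this comparison 12.9% of the tested genes passed the threshold, 9.55% as higher, and 13.1% were higher without overlap (20.1% in either direction).

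The call of Plin2 held under each of the 20 alternatives run, with adjusted p from 0.00156 to 0.0337. Its size depended on the library that stood apart: without MFN2-R94Q replicate 2 the difference was 0.26 (adjusted p 0.0333 by limma), and with libraries weighted by their quality it was 0.18. The exact two-sided permutation test gave p = 0.0179, the smallest that 3 against 5 libraries allow, and 0.119 adjusted over the 10 tests on the members.

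Against nTg, Plin2 did not pass the test in either transgenic group. The nTg levels of 7.62, 7.76 and 7.22 RPKM (mean 7.53 ± 0.283 SD, n = 3) lay between the means of the other groups. MFN2-R94Q was 0.19 lower on the log2 scale (log2 difference -0.19, SE 0.081, adjusted p 0.12 by limma), where 17.9% of the tested genes passed. Without MFN2-R94Q replicate 3 the difference was -0.29 and passed (adjusted p 0.0128 by limma), without replicate 2 it was -0.095, and with library weights it was -0.014 (adjusted p 0.885 by limma). MFN2-R94Q:MFN1 was 0.16 higher (SE 0.072, adjusted p 0.31 by limma), with 4 of 5 libraries well above all nTg libraries and replicate 3 level with the highest. Over all libraries, Plin2 was lowest (5.70 RPKM) in MFN2-R94Q replicate 2, the library with the highest Plin4.

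Plin3, a perilipin that also has a cytosolic pool, had the smallest ratio of highest to lowest library among the members. Its levels were 25.4, 26.2 and 26.1 RPKM in nTg, 22.6, 28.2 and 26.0 in MFN2-R94Q, and 25.0, 25.0, 24.0, 23.7 and 23.7 in MFN2-R94Q:MFN1. The MFN2-R94Q libraries spanned all others, and the MFN2-R94Q:MFN1 libraries lay just under nTg. In that comparison 5.05% of the tested genes were lower without overlap (9.03% higher, 14.1% in either direction). Log2 differences were -0.02 for MFN2-R94Q against nTg (95% interval -0.15 to 0.11), -0.07 for MFN2-R94Q:MFN1 against MFN2-R94Q (-0.19 to 0.05) and -0.09 for MFN2-R94Q:MFN1 against nTg (-0.21 to 0.03). None passed, with adjusted p of 0.84, 0.42 and 0.47 by limma. Without MFN2-R94Q replicate 1, which had the lowest Plin3, the first turned to 0.06 and the second was -0.16 with an adjusted p of 0.0246 by limma. Without replicate 2, which had the highest, the second was 0.0015.

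Plin5, the perilipin of oxidative tissues, was close to the lower limit of the table and did not pass the filter of 0.5 RPKM in 3 libraries, so 3 of the 4 members were tested across all genes. Its levels were 0.372, 0.338 and 0.311 RPKM in nTg, 0.352, 0.819 and 0.271 in MFN2-R94Q, and 0.339, 0.266, 0.256, 0.308 and 0.369 in MFN2-R94Q:MFN1. These values correspond to about 18 to 68 reads per library. MFN2-R94Q replicate 2, with about 68 reads, was the one library above 0.5 RPKM, and the other 10 libraries overlapped without regard to genotype. With no filter the log2 differences were 0.18, -0.24 and -0.06 in the 3 comparisons, with adjusted p of 0.52, 0.35 and 0.91 by limma. Exact two-sided permutation tests gave p = 0.80, 0.179 and 0.286.

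The members rested on different numbers of reads. These were estimated from RPKM, the recovered depths and the length of the longest transcript of each gene. The gene lengths used by the authors are not given. By this estimate, Plin3 rested on about 2516 to 6528 reads per library, Plin2 on 372 to 1181 and Plin4 on 319 in nTg replicate 3 to 12483 in MFN2-R94Q replicate 2. For Plin4 the spread between libraries was widest in MFN2-R94Q, the group with the most reads.

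Plin4 and Plin5 are neighbours on chromosome 17. Both are on the minus strand, and 1648 bases separate the end of Plin5 from the start of Plin4. Plin3 lies further along the same chromosome at 56277476 to 56292873, and Plin2 is on chromosome 4 at 86648386 to 86670060. Lrg1, which encodes a secreted leucine-rich glycoprotein and lies beyond Plin5, was at 0.451, 0.407 and 0.426 RPKM in nTg, 0.458, 2.12 and 1.38 in MFN2-R94Q and 0.431 to 0.486 in MFN2-R94Q:MFN1. It was thus high in MFN2-R94Q replicates 2 and 3 and did not pass the filter. Hdgfl2, listed under its older symbol Hdgfrp2, lies on the plus strand and overlaps the 3′ end of Plin4 by 19 bases. Its levels were 20.4, 22.1 and 19.9 RPKM in nTg, 21.7, 28.0 and 23.1 in MFN2-R94Q and 20.7 to 23.7 in MFN2-R94Q:MFN1, and none of its comparisons passed (adjusted p 0.081, 0.155 and 0.771 by limma). Whether counting used the strand is not given, so reads in the shared 19 bases cannot be assigned.

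**Figure D3:**
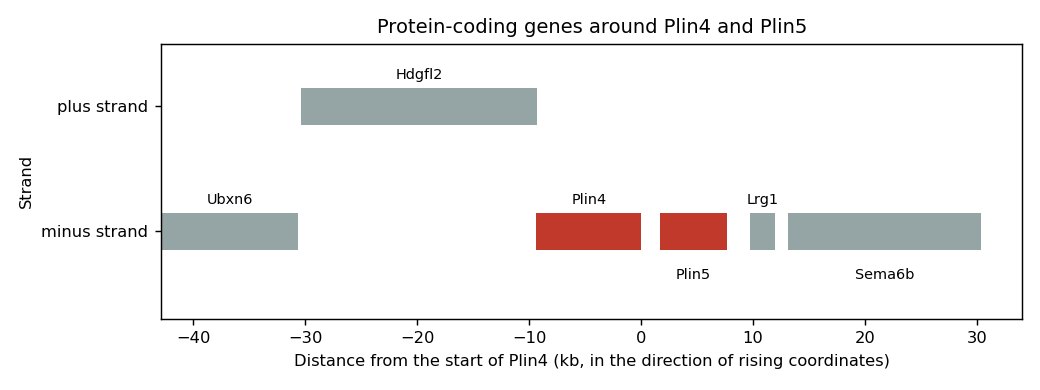
Protein-coding genes around Plin4 and Plin5 drawn by distance from the outermost RefSeq start of Plin4 (kb), with the strand on the vertical axis and perilipins in red. Plin4 and Plin5 follow each other on the minus strand, 1648 bases apart, and Hdgfl2 meets the 3′ end of Plin4 from the plus strand.

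The genes on the outer sides of Hdgfl2 and Lrg1 passed in no comparison. Ubxn6, a cofactor of the segregase p97, had log2 differences of -0.10, 0.01 and -0.09 (adjusted p 0.125, 0.878 and 0.295 by limma). Sema6b, a semaphorin, had 0.03, -0.05 and -0.02 and did not pass. Beside Plin2, Haus6, a subunit of the augmin complex, and Dennd4c, a Rab exchange factor, were higher in MFN2-R94Q than in nTg by 0.21 and 0.17 (adjusted p 0.0345 and 0.046 by limma) and passed in no other comparison, while Rraga and Rps6 passed in none. Of the genes beside Plin3, Fem1a and Ticam1 passed in no comparison, and Arrdc5 and Uhrf1 stayed under 0.5 RPKM.

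Other proteins of the lipid droplet fell in MFN2-R94Q where any passed the test. Of 16 listed genes, 12 were tested, 5 were lower than in nTg and 0 higher, against 10.4% lower and 7.5% higher among all tested genes. Their median log2 difference was -0.09, against -0.0024 over all genes. The gene lists, this one included, were chosen with earlier results of these data known, so their counts are a description. Cideb, a member of the CIDE family of droplet proteins, fell by 0.81 on the log2 scale (SE 0.14, adjusted p 0.0036 by limma). Its levels were 3.58, 3.98 and 3.34 RPKM in nTg and 1.64, 1.90 and 2.05 in MFN2-R94Q. All MFN2-R94Q libraries were below all nTg libraries, as for 19.1% of all tested genes. Ldah, a hydrolase bound to droplets, fell by 0.40 (adjusted p 0.0033 by limma), from 15.0, 15.2 and 15.1 RPKM to 12.3, 9.83 and 12.0. Spg20 (spartin) fell by 0.27, Aup1 by 0.22 and Bscl2 (seipin, which acts where droplets bud from the endoplasmic reticulum) by 0.14. G0s2, an inhibitor of the main triglyceride lipase, and Cidea did not pass. Without MFN2-R94Q replicate 2, 4 genes were lower and 0 higher. Without nTg replicate 2 or nTg replicate 3, 3 were called.

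In MFN2-R94Q:MFN1 against MFN2-R94Q, 4 of the 12 were higher and 0 lower, against 9.55% higher and 3.33% lower among all tested genes. They were Cideb (0.50, SE 0.12), Ldah (0.31, SE 0.058), Spg20 (0.29, SE 0.047) and Aup1 (0.19, SE 0.048). Cideb reached 2.57, 3.46, 2.49, 2.26 and 3.62 RPKM and Ldah 14.6, 14.0, 13.7, 14.2 and 14.2 RPKM, all above MFN2-R94Q. In this comparison 13.1% of all tested genes were higher without overlap. Without MFN2-R94Q replicate 1 or replicate 2, 2 genes were called. Against nTg, 0 of the 12 were called in MFN2-R94Q:MFN1, with a median of -0.03. Both comparisons use the same MFN2-R94Q libraries, so the pair of counts is one observation of that group rather than 2. In the comparisons that use MFN2-R94Q, Plin2 had the same signs as these genes, and Plin4 the opposite ones. Plin2 did not pass in MFN2-R94Q against nTg. In MFN2-R94Q:MFN1 against nTg the signs differed: Plin2 was at 0.16 and Spg20 at 0.018, but Cideb at -0.305, Ldah at -0.089 and Aup1 at -0.031. None of these passed.

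**Figure D4:**
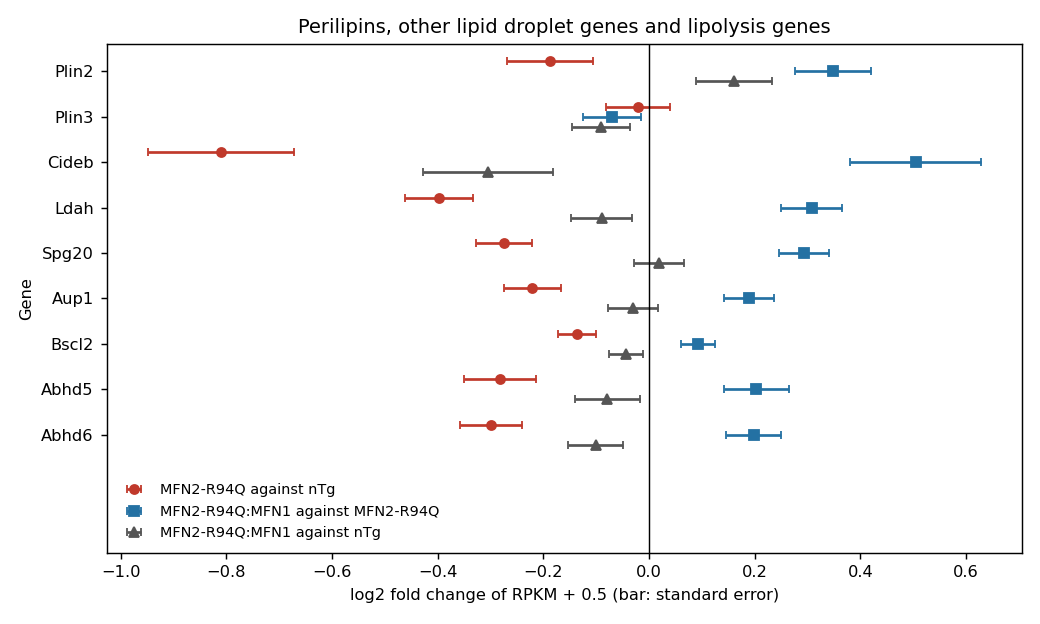
Log2 fold changes of RPKM + 0.5 with standard errors for Plin2, Plin3, the 5 lipid droplet genes and the 2 lipolysis genes that passed in MFN2-R94Q against nTg, in the 3 comparisons. Points of MFN2-R94Q against nTg lie below 0 and, apart from Plin3, those of MFN2-R94Q:MFN1 against MFN2-R94Q lie above 0.

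Lipolysis genes release fatty acids from droplets. Of 11 tested, 2 were lower and 0 higher in MFN2-R94Q, with a median of 0.02, and this share is near the 17.9% called among all tested genes. These were Abhd5, the coactivator of the triglyceride lipase Pnpla2 and a binding partner of perilipins, which fell by 0.28 (adjusted p 0.0155 by limma), and Abhd6, a monoacylglycerol hydrolase, which fell by 0.30 (adjusted p 0.0064 by limma). Both were higher in MFN2-R94Q:MFN1 than in MFN2-R94Q, each by 0.20, with adjusted p of 0.0471 and 0.0281 by limma. Those 2 calls rested on single libraries: 0 were made without MFN2-R94Q replicate 2, and likewise without MFN2-R94Q:MFN1 replicate 2 or replicate 5. Without nTg replicate 3, MFN2-R94Q replicate 3 or MFN2-R94Q:MFN1 replicate 1, 3 or 4, 1 was made. The count against nTg was 1 without nTg replicate 1. Pnpla2 itself was at 10.9, 12.5 and 10.3 RPKM in nTg, 11.6, 39.2 and 14.4 in MFN2-R94Q and 10.1 to 11.5 in MFN2-R94Q:MFN1. Its high value in MFN2-R94Q replicate 2 is in the library with the most Plin4. Pnpla2 did not pass in any comparison (adjusted p 0.111, 0.0726 and 0.934 by limma).

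Of 20 tested genes of triglyceride and sterol ester synthesis, 1 was higher and 2 lower in MFN2-R94Q, a share near the 17.9% called among all tested genes. The acyltransferases Agpat4 and Agpat1 fell by 0.38 and 0.26, and the phosphatidate phosphatase Lpin2 rose by 0.18. In MFN2-R94Q:MFN1 against MFN2-R94Q, Agpat4 was 0.31 and Agpat1 0.16 higher, and Lpin2 had a log2 difference of -0.18, all past the threshold. Against nTg, 0 of the 20 were called in MFN2-R94Q:MFN1. Without MFN2-R94Q replicate 1, the first count was 8 rather than 3. The second fell to 1 without MFN2-R94Q replicate 2 and without MFN2-R94Q:MFN1 replicate 2 or replicate 5.

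Of 12 tested genes of fatty acid uptake and binding, 1 was higher and 3 lower in MFN2-R94Q, against 7.5% higher and 10.4% lower among all tested genes. The binding proteins Fabp5 and Fabp3 fell by 0.31 and 0.18 and the acyl-CoA synthetase and transporter Slc27a4 by 0.22. Lpl, the lipoprotein lipase that frees fatty acids outside the cell, was the one gene higher in every comparison. Its levels were 1.27, 1.03 and 1.38 RPKM in nTg, 1.90, 1.55 and 1.88 in MFN2-R94Q, and 2.62, 2.66, 2.84, 2.68 and 2.65 in MFN2-R94Q:MFN1. The 3 groups did not overlap. Of all tested genes, 16.6% were higher without overlap in MFN2-R94Q than in nTg. For MFN2-R94Q:MFN1 the shares were 13.1% over MFN2-R94Q and 9.03% over nTg. Log2 differences were 0.40 for MFN2-R94Q over nTg, 0.49 for MFN2-R94Q:MFN1 over MFN2-R94Q and 0.89 for MFN2-R94Q:MFN1 over nTg (SE 0.075, adjusted p 2.26e-05 by limma). Dbi, the acyl-CoA binding protein, was the other gene higher in MFN2-R94Q:MFN1 than in nTg (0.17, adjusted p 0.0194 by limma). Of all tested genes, 2.09% were higher in that comparison. Without nTg replicate 2 or replicate 3, 1 gene of the list was called there. Against MFN2-R94Q, 2 were higher, Lpl and Fabp5 (0.37), against 9.55% higher among all tested genes, and 5 were called without MFN2-R94Q replicate 1. Markers of microglia, which express Lpl in some states, were also higher there: their summed level was 98.0 to 106 RPKM in nTg, 89.9 to 107 in MFN2-R94Q and 131 to 140 in MFN2-R94Q:MFN1. Of the 5 microglial genes, 5 were higher than in MFN2-R94Q and 3 higher than in nTg, against 9.55% and 2.09% of all tested genes. Their part in the levels of Lpl and Plin2 was not tested.

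Of 20 tested genes of PPAR signalling and fatty acid oxidation, 3 were higher and 3 lower in MFN2-R94Q, against 7.5% higher and 10.4% lower among all tested genes. The oxidation enzymes Acads, Hadha and Hadhb fell by 0.27, 0.23 and 0.18. Ppargc1a, a coactivator of PPARs, rose by 0.17 (adjusted p 0.0243 by limma). The receptors Ppara, Ppard and Pparg did not pass, with log2 differences of 0.019, 0.035 and 0.054 (adjusted p 0.881, 0.768 and 0.719 by limma). In MFN2-R94Q:MFN1 against MFN2-R94Q, 2 of the 20 were higher and 2 lower, against 9.55% higher and 3.33% lower among all tested genes. The share that was higher is near that of all genes. Hadha and Hadhb were 0.21 and 0.15 higher, while the pyruvate dehydrogenase kinase Pdk4 (-0.79) was lower. Pdk4 was at 5.23, 15.9 and 8.95 RPKM in MFN2-R94Q and 4.32 to 5.78 in MFN2-R94Q:MFN1, so replicate 1 overlapped. Without MFN2-R94Q replicate 2, 1 gene was higher and 3 lower against nTg, and 1 was higher and 0 lower in MFN2-R94Q:MFN1 against MFN2-R94Q. Without nTg replicate 2, 1 gene in all was called against nTg, and without nTg replicate 1, 3 were. Without MFN2-R94Q:MFN1 replicate 2 or replicate 5, 1 and 2 genes were called in MFN2-R94Q:MFN1 against MFN2-R94Q.

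Of 18 tested glucocorticoid response genes, 5 were higher and 0 lower in MFN2-R94Q than in nTg, against 7.5% higher and 10.4% lower among all tested genes. Their median log2 difference was 0.78. This list was chosen with earlier results of these data known, so its counts beside those shares are a description and no test. The 5 were Sult1a1, a sulfotransferase, Hif3a, of the hypoxia-inducible factor family, Fkbp5, a co-chaperone of the glucocorticoid receptor, and the metallothioneins Mt1 and Mt2. Sult1a1 rose by 1.71 (SE 0.28, adjusted p 0.0033 by limma), from 2.34, 2.66 and 2.32 RPKM to 5.55, 17.4 and 7.68. Hif3a rose by 1.53 (SE 0.34, adjusted p 0.0107 by limma), from 1.81, 1.72 and 0.867 RPKM to 2.89, 10.4 and 4.03. Fkbp5 rose by 0.96, from 8.54, 7.41 and 6.92 RPKM to 10.3, 29.3 and 11.8, and Mt2 and Mt1 rose by 0.89 and 0.80. In all 5, MFN2-R94Q replicate 2 was the highest of the 11 libraries, as for Plin4. Sgk1, Zbtb16, Per1, Klf9, Dusp1 and Tsc22d3 did not pass, with log2 differences of 1.27, 0.82, 0.51, 0.35, 0.17 and -0.00046. Their adjusted p ran from 0.066 to 0.998 by limma, and the groups overlapped in each. Nr3c1 did not pass either (-0.11).

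In MFN2-R94Q:MFN1 against MFN2-R94Q, 8 of the 18 were lower and 0 higher, with a median of -0.81, against 3.33% lower and 9.55% higher among all tested genes. Sult1a1 differed by -1.52 and stood at 2.95, 2.22, 3.44, 3.05 and 2.74 RPKM, Hif3a by -1.35, Cdkn1a by -1.73, Ddit4 by -0.91, Fkbp5 by -0.90 and Nfkbia by -0.83. Pdk4, which belongs to this list too, and Mt1 make up the 8. The limit on how the list was chosen holds for this count too. Against nTg, 0 were called in MFN2-R94Q:MFN1, with a median of 0.02. The differences were largest in MFN2-R94Q replicate 2. The mean log2 difference of the list from nTg was 0.23, 1.43 and 0.62 in MFN2-R94Q replicates 1 to 3, -0.11 to 0.18 in nTg and -0.25 to 0.19 in MFN2-R94Q:MFN1. Replicate 1 of MFN2-R94Q was thus little above the highest libraries of the other groups. Without replicate 2 the counts were 5 higher and 0 lower against nTg with a median of 0.35, and 0 higher and 4 lower in MFN2-R94Q:MFN1 with a median of -0.36. Without MFN2-R94Q replicate 1 there were 14 and 16 calls. The second count was 2, 4, 3 and 4 without MFN2-R94Q:MFN1 replicates 2, 3, 4 and 5, each left out alone.

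**Figure D5:**
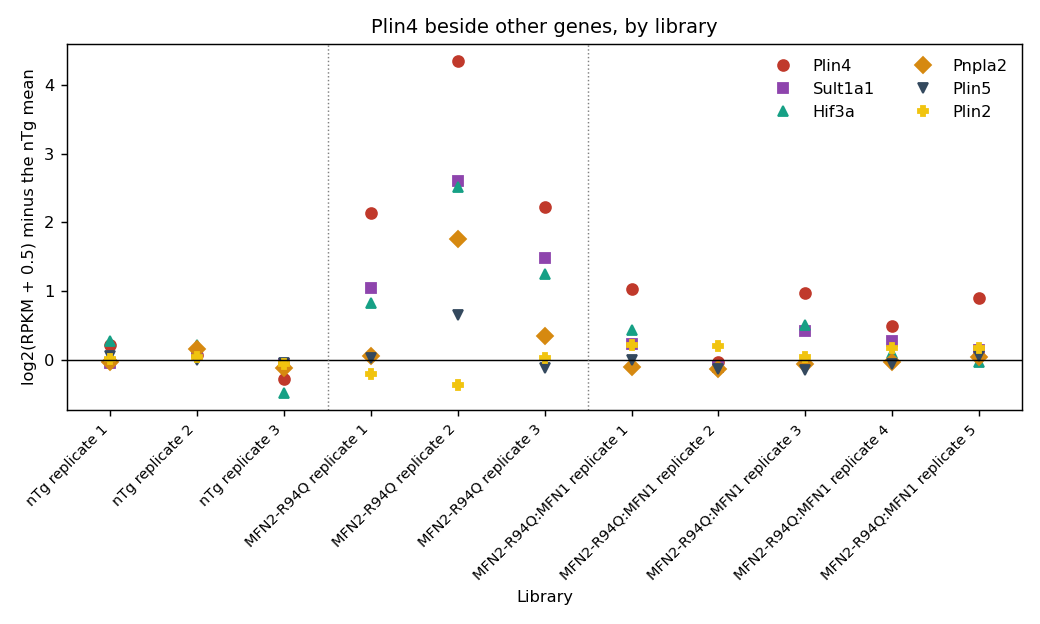
Difference of log2(RPKM + 0.5) from the nTg mean in each library for Plin4, Plin5, Plin2, the triglyceride lipase gene Pnpla2 and the glucocorticoid response genes Sult1a1 and Hif3a. Plin4 stands at 2.13, 4.36 and 2.22 in MFN2-R94Q, Sult1a1 and Hif3a are highest in the same 3 libraries, and Pnpla2 and Plin5 are far above nTg in replicate 2 alone.

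The genes whose levels were most like those of Plin4 across the 11 libraries were Ak3 (Pearson r 0.99), Trim23 (0.98), Brd8 (0.98), Sult1a1 (0.98), and Kif17, Ankrd13a, Erlin2, Azin1, Fam117b and Hivep2 (0.97 each). These are correlations of log2 levels over libraries that share the 3 genotypes and the outlying library, and they carry no test. Ak3, an adenylate kinase of the mitochondrial matrix, was at 41.9, 42.9 and 41.6 RPKM in nTg, 46.4, 52.6 and 48.3 in MFN2-R94Q and 41.9 to 44.9 in MFN2-R94Q:MFN1. Its pattern was that of Plin4 at a far smaller size. Erlin2, a protein of the endoplasmic reticulum, was at 14.0, 14.4 and 13.4 RPKM in nTg, 18.1, 25.9 and 18.3 in MFN2-R94Q and 14.9 to 16.9 in MFN2-R94Q:MFN1. Without MFN2-R94Q replicate 2, 4 of the 10 genes were again among the 10 most alike, and by Spearman's rho 3 of 10 were.

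For Plin2 the most alike genes were Plpp3, a lipid phosphate phosphatase (r 0.98), Tcf7, Lgi4, Tmem173 and Gnb4. Plpp3 was at 42.7, 43.0 and 42.7 RPKM in nTg, 40.2, 38.2 and 42.6 in MFN2-R94Q and 44.1 to 46.2 in MFN2-R94Q:MFN1. For Plin3 they were Farsa (r 0.95), Slc37a4, Clstn1, Asic2 and Map4k2. For Plin5 they were Notch4, Thra, Sgk3, Maff and Slc37a1, of which 0 of 5 were again among the 5 most alike without MFN2-R94Q replicate 2. Between the members themselves, Plin4 and Plin5 had r = 0.74 over the 11 libraries and -0.04 without that library. Plin4 and Plin2 had -0.72 and -0.35. Both correlations were thus far smaller without 1 library.

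Markers of other tissues that express Plin4 were low, most of them at the floor. The 7 adipocyte markers in the table, among them Adipoq, Fabp4 and Plin1, were under 0.5 RPKM in every library and summed to 0.153 to 0.198 RPKM in nTg, 0.045 to 0.278 in MFN2-R94Q and 0.086 to 0.179 in MFN2-R94Q:MFN1. Of 8 skeletal muscle markers, 7 were under 0.5 RPKM in all libraries, and the sums were 1.60 to 1.71, 1.33 to 1.74 and 1.23 to 2.13 RPKM in the 3 groups. All 5 listed macrophage markers, which are not markers of those tissues, were also under 0.5 RPKM in every library. The ranges of these adipocyte and muscle sums overlap between MFN2-R94Q and the other groups, for adipocyte markers only through MFN2-R94Q replicate 3 (0.045 RPKM). MFN2-R94Q replicates 1 and 2 were at 0.278 and 0.238 RPKM, above every nTg and MFN2-R94Q:MFN1 library. The part of these markers in the level of Plin4 was not tested.

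Some markers of the cells of the cord also differed between MFN2-R94Q and nTg, where 10.4% of all tested genes were lower and 7.5% higher. The summed oligodendrocyte markers were 3523 to 3823 RPKM in nTg, 3132 to 3410 in MFN2-R94Q and 3647 to 3977 in MFN2-R94Q:MFN1, with 2 of 5 genes lower in MFN2-R94Q. Endothelial markers summed to 55.3 to 62.5 RPKM in nTg and 46.5 to 47.7 in MFN2-R94Q, with 3 of 5 lower. Motor neuron markers summed to 90.2 to 93.1 and 77.1 to 83.9 RPKM, with 4 of 6 lower. Astrocyte markers summed to 396 to 410 and 350 to 398 RPKM, with 1 of 5 lower. Microglial and ependymal markers had 1 lower gene each, P2ry12 and Foxj1. For astrocyte and microglial markers, 1 of 5 is near the 17.9% called among all tested genes, and the sums overlapped between the groups. Of 4 neuronal markers, Nefl was lower and Syt1 higher (0.15), and of the Schwann cell and root markers Ncmap was higher (0.44). MFN2-R94Q replicate 2 had the lowest sums of neuronal, motor neuron, astrocyte, oligodendrocyte, microglial, ependymal, endothelial and erythroid markers. The lowest sums of the other marker lists were in other libraries. The part of these markers in the levels of the perilipins was not tested.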

How the data were processed

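RNA from lumbar spinal cord of 11 mice was sequenced from poly(A) libraries (TruSeq Stranded mRNA, per the labels' protocols). The values deposited by the authors are in RPKM, for 20888 symbols in 11 columns. TopHat and Partek 7.17.0918 were used on mm10, per the submitters' processing notes. Which annotation and strand setting were used, and how reads that match several places were treated, is not given in the sources used here. Libraries were treated as single animals because the series' design gives n in mice, and p-values rest on the spread between them.

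Depth was recovered from low RPKM values of microRNA, snRNA and snoRNA genes. Between 60.7% and 74.0% of these values were within 0.02 of a whole read, so depths and read numbers are approximate, and no count test was run.

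The 14347 genes that reached 0.5 RPKM in 3 or more libraries were tested with limma 3.58.1 in R 4.3.3 (trend, two-sided) on log2(RPKM + 0.5). The fit held all 11 libraries with genotype as its only term. Benjamini-Hochberg adjustment ran over all tested genes, with a threshold of 0.05. This scale understates the change of low genes. The fit was tested on simulated data. Exact permutation tests were run for the members. A likeness is Pearson's r of log2(RPKM + 0.5).

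The members and gene lists were chosen with earlier results of these data known, the glucocorticoid list among them. Named genes were the members and Plin1, up to 4 genes of each list with the smallest p in a comparison where any passed (counts of 5 to 8 are named in full), the most alike genes, the 2 protein-coding neighbours on each side, and Mfn1 and Mfn2. Other genes named beside a list were chosen after their values were seen. These were G0s2, Cidea, Ppargc1a, Ppara, Ppard, Pparg, Sgk1, Zbtb16, Per1, Klf9, Dusp1, Tsc22d3, Nr3c1 and marker genes. Some genes of the lists are counted but not reported by name here. Gene positions are from GENCODE on GRCm38, which is mm10, and promoters and neighbours from RefSeq on GRCm38.p6.

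Alternatives were other pseudocounts, no filter or a filter at 1 RPKM, quantile and median-ratio scaling, the groups of a comparison alone, library weights, robust variance, and each library left out.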

Additional observations from a re-analysis of the deposited data

Results flagged for a closer look

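In the group of 5 MFN2-R94Q:MFN1 libraries, 6 of 78 items examined had one library far from the rest by Dixon's test at the 95% level. Chance flags about 1 in 20 such groups. Plin2 was at 7.76 RPKM in replicate 3, where the other 4 libraries had 8.56 to 8.78. That library is also the one nearest to MFN2-R94Q, and the call of Plin2 against MFN2-R94Q includes it. Replicate 3 also stood apart in markers of other tissue: Schwann cell and root markers summed to 13.3 RPKM (others 1.30 to 2.09) and meningeal fibroblast markers to 18.0 (13.0 to 13.4). Their part in these values was not tested. In the same replicate 3, Lpl was at 2.84 RPKM (others 2.62 to 2.68) and Dennd4c, which lies beside Plin2, at 4.15 (3.83 to 3.88). In replicate 1, Hdgfrp2, which overlaps the end of Plin4, was at 23.7 RPKM (20.7 to 21.4). In replicate 2, the library with the lowest Plin4 of its group, Ubxn6 was at 30.8 RPKM (27.8 to 28.1) and Sema6b at 14.6 (13.5 to 13.8). Groups of 3 libraries were not examined this way.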

How the results depend on the processing

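No paired analysis was possible because the labels give no pairing between mice. Plin2 in MFN2-R94Q:MFN1 against MFN2-R94Q kept its direction and its call under all 20 alternatives (0.18 to 0.45). Plin4 in MFN2-R94Q:MFN1 against nTg stayed above 0 and short of the threshold under all 20 (0.53 to 0.85). The limit from the nTg libraries used in its choice holds here too. Plin3 turned to 0.0037 against nTg in MFN2-R94Q under quantile scaling and to 0.064 without MFN2-R94Q replicate 1, and to 0.0015 in MFN2-R94Q:MFN1 against MFN2-R94Q without MFN2-R94Q replicate 2. The causes were not tested.

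With each library left out in turn, the log2 difference of Plin2 in MFN2-R94Q against nTg ran from -0.29 (without MFN2-R94Q replicate 3, the one run in which it passed) to -0.095, with library weights it was -0.014, and that of Plin3 from -0.092 to 0.064. Plin3 in MFN2-R94Q:MFN1 against MFN2-R94Q ran from -0.16 to 0.0015. Genes called in MFN2-R94Q against nTg (2561) numbered 1213 (without nTg replicate 2) to 2857, in MFN2-R94Q:MFN1 against MFN2-R94Q (1848) 882 (without MFN2-R94Q replicate 2) to 2217, and in MFN2-R94Q:MFN1 against nTg (332) 189 (without nTg replicate 1) to 589 (without MFN2-R94Q replicate 2). Fitting 2 groups alone gave 846 calls for the first and 566 for the third, no filter gave 1198 for the second, and library weights gave 3378 for the second and 590 for the third. Those counts are the backgrounds of the list counts.

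Left-out ranges of list calls in MFN2-R94Q against nTg and in MFN2-R94Q:MFN1 against MFN2-R94Q were 3 to 5 and 2 to 4 for lipid droplet proteins, and 1 to 3 and 0 to 3 for lipolysis. They were 2 to 8 and 1 to 4 for triglyceride and sterol ester synthesis, 1 to 8 and 1 to 6 for PPAR and fatty acid oxidation, and 4 to 14 and 2 to 16 for glucocorticoid response, which had 0 to 3 in MFN2-R94Q:MFN1 against nTg. Fatty acid uptake and binding had 2 to 5 in MFN2-R94Q:MFN1 against MFN2-R94Q and 1 to 2 against nTg. Under quantile scaling, lipolysis had 1 call in MFN2-R94Q:MFN1 against MFN2-R94Q and synthesis 5 in MFN2-R94Q against nTg. Plin5 rests on too few reads to show a modest difference.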
